A study of Homo sapiens with 8 samples.

Results

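The genes described here are 39 components, regulators and receptors of the complement system, matched by symbol to the Entrez gene IDs of a table of 26235 genes counted by RNA-Seq. They were measured in HepG2, a human hepatocellular carcinoma cell line, given a vehicle or an estrogen receptor ligand. All cells were kept in phenol red-free medium, starved for 16 h in 0.1% FBS and treated for 48 h. The control cells received DMSO. The treated cells received 1 µM of 17β-estradiol (E2, the natural estrogen), of PPT, a nonsteroidal agonist selective for estrogen receptor α, or of DPN, one selective for estrogen receptor β. Each group had 2 libraries here, so that 8 were used, and their depth ran from 25103160 to 29670814 counts. Of the 39 genes, 34 had at least 1 count and 29 had enough counts to be tested. The other 10 are given below by their counts. ESR1, which encodes estrogen receptor α, had 0 counts in all 8 libraries, which allows a level of up to 0.0136 CPM. ESR2, which encodes estrogen receptor β, had 30 counts in total. GPER1, which encodes a G protein-coupled estrogen receptor, had 2990 counts in total and a mean of 16.2 CPM in the control group. Its changes are given under the other observations. The hepatocyte markers ALB, AFP and APOA1 were present, with a summed level of the 11 hepatocyte markers of 62000 to 63800 CPM in control cells, 85600 to 89800 with E2, 43400 to 47400 with PPT and 45100 to 46000 with DPN. Of 10 markers of macrophages and other blood cells, 5 had 0 counts in every library, among them C1QA, C1QB and C1QC, and the sum, most of it LYZ, was 1200 to 1220 CPM in control cells, 1530 to 1550 with E2, 567 to 579 with PPT and 1120 to 1160 with DPN. The 6 markers of stellate cells and fibroblasts summed to 33.2 to 33.4, 51.5 to 52.4, 19.6 to 19.6 and 14.2 to 15.8 CPM in the same order, and the 5 endothelial markers to 4.2 to 4.35, 7.45 to 7.92, 1.83 to 2.78 and 2.91 to 3.16. Some members of a list moved apart in the tests described below. With E2, 6 of the 11 hepatocyte markers rose and 3 fell, AFP among them (30.8% and 31.8% of all tested genes). With PPT, 2 rose and 8 fell (22.9% and 22.8%), and with DPN 1 rose and 9 fell (24.4% and 24.1%). The endothelial markers VWF and CDH5 rose and PECAM1 fell with E2. Of the stellate markers, 2 could be tested. ACTA2 and PDGFRB both rose with E2 (log2 fold changes 0.554 and 1.055) and both fell with PPT (-0.686 and -1.282). With DPN, ACTA2 fell (-1.362) and PDGFRB did not pass the test (-0.342). The part of these sums in the complement results was not tested. In bulk RNA, fewer cells of a kind and less RNA per cell cannot be told apart. Neither labels nor methods call the 2 libraries of a group separate cultures. The p-values therefore rest on a spread between libraries that may be technical.

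Complement is a cascade of plasma proteins, most of them made by hepatocytes. The classical pathway starts when C1r activates C1s, which cuts C4 and C2, the lectin pathway starts when MASP proteases bound to mannose-binding lectin or a collectin do so, and the alternative pathway amplifies C3 cleavage through factors B and D. These routes lead to cleavage of C3 and C5, and C5 to C9 then assemble the membrane attack complex. Soluble and membrane-bound regulators hold the cascade back, and the small fragments C3a and C5a act on cells through their own receptors.

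Complement mRNA made up a larger part of the transcriptome with E2 than in any other group. The 39 genes took 0.849% and 0.865% of all counts in the control libraries, and 2.16% and 2.10% with E2. Their share was 0.741% and 0.761% with PPT and 0.807% and 0.834% with DPN. 95% Wilson intervals, which cover counting error only, ran from 0.846% to 0.868% over both control libraries, 2.09% to 2.16% with E2, 0.738% to 0.765% with PPT and 0.804% to 0.838% with DPN. C3 alone took 0.299% and 0.311% of control counts and 1.08% and 1.02% of E2 counts, and C4A and C4B together took 0.28% and 0.286% of control counts against 0.693% and 0.701% with E2. Per kilobase of annotated exon, C3 and C4B were the highest members in control cells. Their mean levels of 252 and 251 CPM per kb cannot be ordered. C4A followed at 126, and C7 was the lowest tested member at 0.137. C4A and C4B share reads, so their places in this order depend on how those reads were divided between them. C3 ranked 102 of 25055 genes by this level in control cells and 26 with E2.

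**Figure D1:**
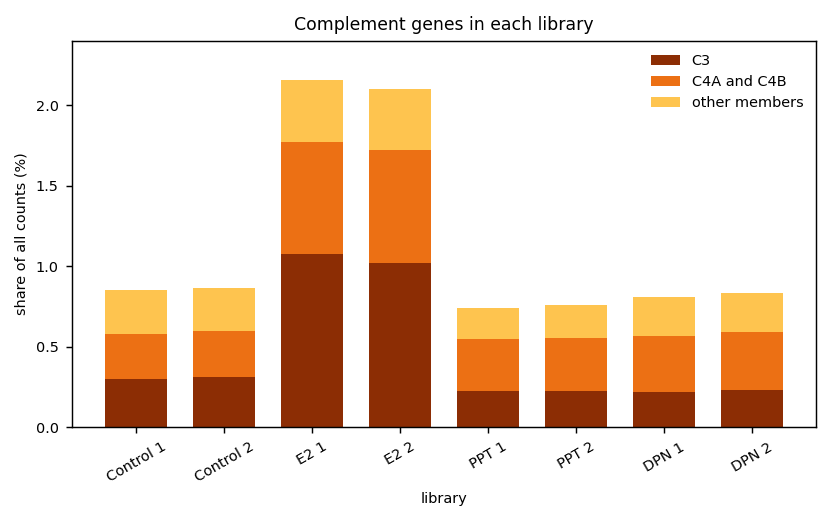
Share of all counts (%, y axis) taken by the complement genes in each of the 8 libraries (x axis). Bars are stacked from C3, from C4A and C4B, and from the other members. The E2 bars reach 2.16% and 2.10%, and no bar of another group passes 0.865%.

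**Figure D2:**
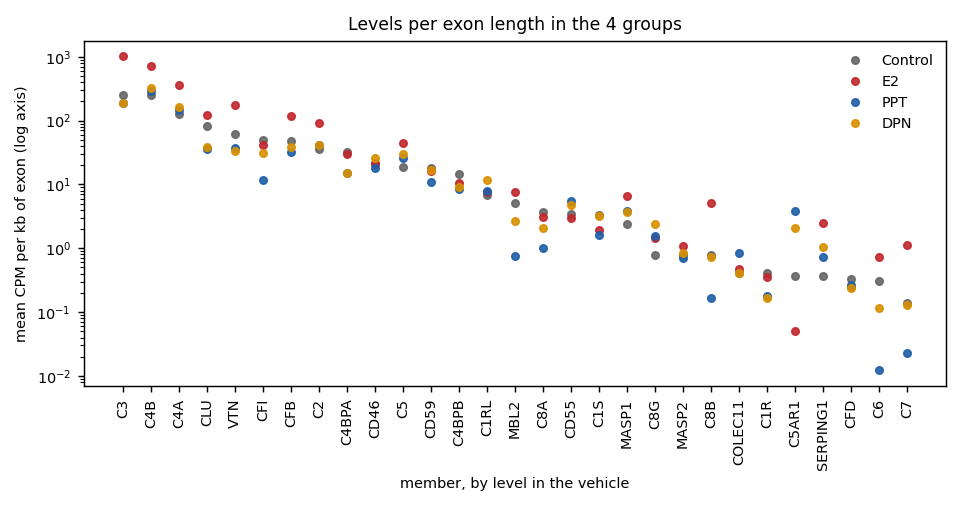
Mean level of the 29 tested members in CPM per kilobase of exon (log axis) in the 4 groups, n = 2 per group. C3 and C4B lead in control cells at 252 and 251 CPM per kb, and C7 is lowest at 0.137. C4A and C4B share reads, so their separate points depend on how those reads were divided.

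In the tests, a gene rose or fell where edgeR's quasi-likelihood adjusted p was under 0.05, and values below are log2 fold changes ± SE from one fit of the 8 libraries, with levels in CPM after TMM scaling. With E2, 15 of the 29 members rose and 4 fell, while 30.8% of all tested genes rose and 31.8% fell. The median log2 fold change was 0.54 over the members and 0 over all genes. This count depended on the scaling, as 14 rose and 9 fell when scaled by library size alone, which moved the median of all genes by -0.224. C4A and C4B share reads, and with the pair summed into 1 gene 14 of 28 rose and 4 fell. With PPT, 9 members rose and 16 fell, against 22.9% and 22.8% of all genes, and the medians were -0.43 and 0.01. With DPN, 11 rose and 11 fell, against 24.4% and 24.1% of all genes, and the medians were -0.06 and 0. The thresholds of the paper were also applied, at an adjusted p under 0.01 and a log2 change of more than 1.5 either way. By these, 7 members were higher and 1 was lower with E2 (7.15% and 2.98% of all genes), 1 was higher and 6 were lower with PPT (1.9% and 2.86%), and 3 were higher with DPN (1.92%). C4A and C4B were both among the 7. No member was lower with DPN at these thresholds, also in DESeq2, and 0 had an unadjusted p under 0.05 with a fall of that size, against 2.02% of all genes called lower. The 3 comparisons share the same 2 control libraries.

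**Figure D3:**
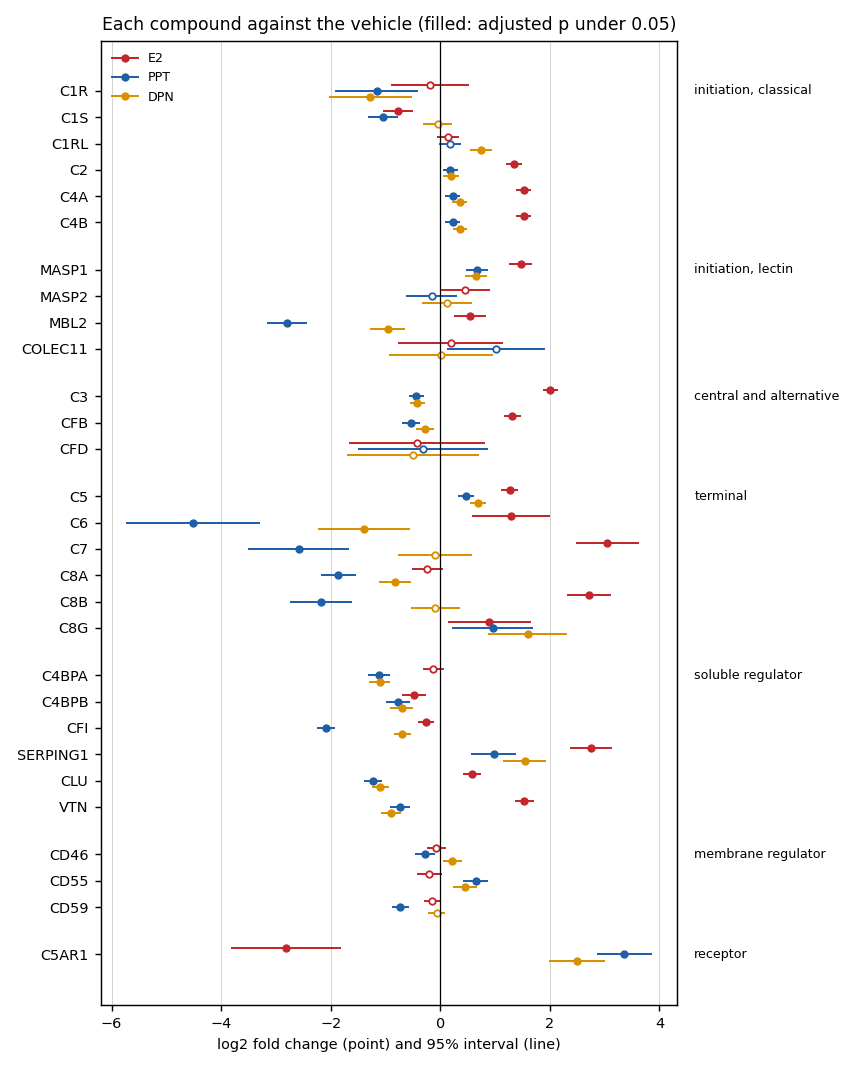
Log2 fold change against the vehicle with 95% intervals (x axis) for the 29 tested members, by role (y axis), with a color per compound. Filled points passed an adjusted p of 0.05. With E2, 15 filled points lie to the right and 4 to the left, with PPT 9 and 16.

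The promoter sequences shown next come from RefSeq windows of 250 bases before to 50 after the start of a transcript on GRCh38.p14. 27 of the members matched, with 41 windows. CFB, MBL2 and VTN are shown because they were higher with E2 than with PPT at the thresholds of the paper and held at least 2 different motifs of 6 searched on both strands. Of 11 members higher with E2 by these thresholds, 8 had a window, and 3 held 2 or more different motifs. C5AR1 is shown because it moved the other way. Capitals mark the matches, read on either strand, and overlaps between motifs were allowed. In CFB (chr6:31945845-31946144, plus strand), they are an interferon-stimulated response element, an NF-kappaB site and a STAT site (TTCNNNGAA), starting 140, 112 and 92 bases before the start. In MBL2 (chr10:52772735-52773034, minus strand, the first of its windows), they are C/EBP sites (TTGCNNAA) at 244 and 230 and a STAT site at 136. In VTN (chr17:28370258-28370557, minus strand), they are C/EBP sites at 225 and 47 and a STAT site at 109. The C5AR1 window (chr19:47309611-47309910, plus strand) held none of the 6 motifs. Neither did the windows of C8A, C8B and CFI, which were higher with E2 than with PPT. Whether the motifs go with the direction of change was not tested.
CFB: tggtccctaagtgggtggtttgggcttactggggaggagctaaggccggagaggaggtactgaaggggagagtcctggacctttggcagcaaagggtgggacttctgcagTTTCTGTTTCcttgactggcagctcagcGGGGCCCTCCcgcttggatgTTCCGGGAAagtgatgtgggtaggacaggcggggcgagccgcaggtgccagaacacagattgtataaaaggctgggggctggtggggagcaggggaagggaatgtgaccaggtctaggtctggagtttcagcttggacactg
MBL2: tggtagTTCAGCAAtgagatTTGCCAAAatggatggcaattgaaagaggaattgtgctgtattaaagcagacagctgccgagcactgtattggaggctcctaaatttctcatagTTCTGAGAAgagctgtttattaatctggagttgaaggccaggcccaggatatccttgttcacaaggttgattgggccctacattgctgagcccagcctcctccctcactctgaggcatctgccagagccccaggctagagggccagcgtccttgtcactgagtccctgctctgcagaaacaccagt
VTN: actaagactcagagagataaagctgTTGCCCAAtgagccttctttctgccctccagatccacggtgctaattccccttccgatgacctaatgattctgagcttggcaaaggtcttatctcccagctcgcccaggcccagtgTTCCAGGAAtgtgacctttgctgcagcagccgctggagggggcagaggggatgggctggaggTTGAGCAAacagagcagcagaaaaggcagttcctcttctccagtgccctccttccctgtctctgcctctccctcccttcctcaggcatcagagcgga
C5AR1: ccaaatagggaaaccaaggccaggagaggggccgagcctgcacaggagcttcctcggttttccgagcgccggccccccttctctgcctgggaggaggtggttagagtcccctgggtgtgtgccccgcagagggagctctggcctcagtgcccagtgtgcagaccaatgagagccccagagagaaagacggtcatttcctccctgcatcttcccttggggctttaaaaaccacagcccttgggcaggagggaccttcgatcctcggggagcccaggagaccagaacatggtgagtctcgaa
A C/EBP match was found in 10.5% of all 35116 windows and in 9 of the 41 windows of members. For STAT these were 7.66% and 12, for NF-kappaB 11.3% and 4, and for the interferon-stimulated response element 3.57% and 1. Windows of 1 gene can overlap, and a STAT match of C4BPB and of CD59 was counted in more than 1 window. By gene, C/EBP was found in 7, STAT in 10, NF-kappaB in 4 and the interferon-stimulated response element in 1 of the 27 members. The shares over all windows are not by gene. The full estrogen response element was in 0.057% of all windows and the HNF1 motif in 0.0057%, and neither was in a window of a member. A match is a description of letters and not a site.

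Among the genes that start the classical pathway, C2, C4A and C4B rose with E2 and C1S fell. With E2, 3 of the 6 tested genes rose and 1 fell (30.8% and 31.8% of all tested genes). 3 rose and 2 fell with PPT (22.9% and 22.8%), and 4 rose and 1 fell with DPN (24.4% and 24.1%). C4A and C4B (chr6:31982057-32002681 and chr6:32014795-32035418 on GRCh38), which encode the isotypes of C4, lie next to each other and are nearly identical, so their reads cannot be fully told apart. C4A stood at 897 and 913 CPM in control cells, 2602 and 2601 with E2, 1044 and 1071 with PPT and 1134 and 1184 with DPN. C4B stood at 1786 and 1819 CPM in control cells, 5181 and 5187 with E2, 2083 and 2137 with PPT and 2260 and 2362 with DPN. Every treated library lay above both controls for both genes, and the E2 libraries lay above all others. The log2 fold change was 1.52 ± 0.06 for each with E2, 0.23 ± 0.06 for each with PPT (adjusted p = 0.0021 for C4A and 0.00151 for C4B) and 0.36 ± 0.06 for each with DPN (adjusted p = 9.94e-06 and 6.12e-06). The E2 rises had adjusted p-values of 5.1e-18 and 2.63e-18. C4A held 33.4% of the reads of both in the first control library (95% Wilson interval 33.1% to 33.8%), and this share lay between 33.38% and 33.44% in all 8 libraries. The shares thus varied by less than the width of that interval. How shared reads were divided between the genes is not given in the sources used here. The share is therefore not a measured ratio of the isotypes, and the 2 genes are not independent results.

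C2, the protease that C4b binds (chr6:31897785-31945673), read 255 and 260 CPM in control cells, 644 and 658 with E2, 293 and 292 with PPT and 287 and 302 with DPN. The E2 libraries were well apart from the rest, at a log2 fold change of 1.34 ± 0.06 (adjusted p = 2.63e-16), while PPT and DPN gave 0.19 ± 0.06 and 0.20 ± 0.06 (adjusted p = 0.0154 and 0.0103). These rises did not pass without Control replicate 1 (0.172 and 0.181, adjusted p = 0.116 and 0.0903) or Control replicate 2 (adjusted p = 0.0731 and 0.0599), nor did the DPN rise without DPN replicate 2 (adjusted p = 0.119). C2 and CFB overlap by 24 bases on the same strand. C1RL, a C1r-like protease, stood at 35.3 and 33.7 CPM in control cells, 36.6 and 39.7 with E2, 40.5 and 38.0 with PPT and 59.6 and 55.6 with DPN. It rose with DPN (0.74 ± 0.09, adjusted p = 9.21e-08), and E2 and PPT did not pass the test (adjusted p = 0.174 and 0.0967). C1S, the protease that cuts C4 and C2, ranged from 26.2 to 29.0 CPM in control cells, 14.5 to 17.8 with E2, 11.4 to 15.2 with PPT and 26.1 to 27.2 with DPN, and fell with E2 (-0.77 ± 0.13, adjusted p = 7.8e-06) and with PPT (-1.05 ± 0.13, adjusted p = 1.09e-07). C1R, which activates C1s and was present at 2.26 to 2.44 CPM in control cells, fell with PPT (-1.16 ± 0.36, adjusted p = 0.00909) and DPN (-1.28 ± 0.36, adjusted p = 0.00438). The fall with PPT did not pass without Control replicate 2 (-1.113, adjusted p = 0.0527) or PPT replicate 1 (-0.998, adjusted p = 0.0722), nor the fall with DPN without DPN replicate 1 (-0.963, adjusted p = 0.061). The C1R and C1RL spans overlap by 2954 bases on the same strand.

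In the lectin pathway, MBL2 and MASP1 moved and the collectin COLEC11 and MASP2 did not pass the test. MBL2 encodes mannose-binding lectin, which binds sugars on microbes (chr10:52765380-52772784), and its control libraries had 17.7 and 19.96 CPM. The E2 libraries had 24.2 and 30.7 CPM, those with PPT 2.46 and 2.95, and those with DPN 10.8 and 8.49. All treated groups lay clear of the controls. MBL2 rose with E2 (0.54 ± 0.14, adjusted p = 0.00102), fell 6.95-fold with PPT (-2.80 ± 0.17, adjusted p = 1.34e-13) and fell with DPN (-0.96 ± 0.14, adjusted p = 2.71e-06). The rise with E2 rested on 1 library: without E2 replicate 2 it was 0.354 (adjusted p = 0.0691). MASP1, a protease of the lectin complexes, was at 32.0 and 30.2 CPM in control cells, 92.9 and 79.1 with E2, 48.4 and 50.7 with PPT and 51.0 and 46.4 with DPN. MASP1 rose in each treated group, with a log2 fold change of 1.47 ± 0.09 for E2 (adjusted p = 1.11e-13), 0.67 for PPT (adjusted p = 7.13e-07) and 0.65 for DPN (adjusted p = 1.22e-06). MASP2, the protease that cuts C4 and C2 in this pathway, was at 4.16 and 3.80 CPM in control cells, 6.44 and 4.46 with E2, 3.67 and 3.48 with PPT and 4.33 and 4.33 with DPN. With E2 the difference missed the threshold (0.45, adjusted p = 0.0708) but passed without E2 replicate 2 (0.69, adjusted p = 0.018). COLEC11 was at 0.613 and 1.69 CPM in control cells, 1.70 and 0.926 with E2, 2.24 and 2.41 with PPT and 1.52 and 0.790 with DPN. The PPT libraries lay above both controls (95% interval of the log2 fold change 0.139 to 1.891, adjusted p = 0.0538), and the difference passed without Control replicate 2 (1.909, adjusted p = 0.0062), DPN replicate 1 (adjusted p = 0.0467) or DPN replicate 2 (adjusted p = 0.043). FCN3, a ficolin, had 0 counts in every library.

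With C4A and C4B taken as separate genes, C3 had the highest level per length with E2 and took the most counts there. With PPT and DPN it stood at 186 and 188 CPM per kb, under C4B at 294 and 322. The C4B level depends on how reads shared with C4A were divided. The C3 protein is the center of the cascade, and all pathways cut it. C3 (chr19:6677704-6730562) was at 2863 and 2969 CPM in control cells, 12100 and 11360 with E2, 2161 and 2153 with PPT and 2124 and 2228 with DPN. The E2 libraries stood above all others, and the PPT and DPN libraries below both controls. C3 rose 4.02-fold with E2 (2.01 ± 0.06, adjusted p = 1.25e-20) and fell with PPT (-0.44 ± 0.06, adjusted p = 3.81e-07) and DPN (-0.42 ± 0.06, adjusted p = 5.82e-07). The C3 span overlaps GPR108 by 649 bases on the same strand.

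CFB, which encodes the protease of the alternative C3 convertase (chr6:31945650-31952086), rose with E2 and fell with PPT and DPN. It was at 248 and 254 CPM in control cells, 672 and 576 with E2, 174 and 172 with PPT and 206 and 206 with DPN. The groups did not overlap, and the log2 fold changes were 1.32 ± 0.07 (adjusted p = 3.75e-15), -0.53 ± 0.07 (adjusted p = 3.69e-07) and -0.28 ± 0.07 (adjusted p = 0.00123). CFD, the protease that activates factor B, was at 0.645 and 0.576 CPM in control cells, 0.403 and 0.505 with E2, 0.476 and 0.502 with PPT and 0.416 and 0.447 with DPN. It passed no test, with adjusted p of 0.504 to 0.687. CFP, which encodes properdin, had 2 counts over the 8 libraries.

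The terminal pathway genes had a median log2 difference of 3.26 between E2 and PPT. Of 6 tested, 5 rose with E2 and C8A did not pass the test, while 30.8% of all tested genes rose and 31.8% fell. 2 rose and 4 fell with PPT (22.9% and 22.8%), and 2 rose and 2 fell with DPN (24.4% and 24.1%). C5, the parent of the attack complex and of C5a (chr9:120932987-121075195), was at 322 and 310 CPM in control cells, 742 and 776 with E2, 426 and 448 with PPT and 511 and 504 with DPN. Every treated library lay above the controls, and C5 rose with E2 (1.26 ± 0.06, adjusted p = 9.97e-16), with PPT (0.47 ± 0.06, adjusted p = 5.17e-07) and with DPN (0.68 ± 0.06, adjusted p = 6.16e-10).

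C6 and C7 join C5b in turn, and both were present at few counts. C6 (chr5:41142116-41261438) was at 2.39 and 1.80 CPM in control cells, 3.76 and 6.49 with E2, 0.0367 and 0.134 with PPT and 1.07 and 0.515 with DPN. The PPT libraries held 5 counts of C6 against 127 in the controls, a ratio of 24 with an exact counting interval of 10 to 75.2. Its log2 fold changes were 1.29 ± 0.34 with E2 (adjusted p = 0.00175), -4.51 ± 0.58 with PPT (adjusted p = 3.42e-07) and -1.39 ± 0.40 with DPN (adjusted p = 0.00471). Leaving out E2 replicate 2 brought the first to 0.838 (adjusted p = 0.128), and leaving out DPN replicate 2 brought the last to -0.961 (adjusted p = 0.0899). C7 (chr5:40909492-41020216) was at 1.52 and 1.25 CPM in control cells, 11.7 and 11.3 with E2, 0.220 and 0.234 with PPT and 0.831 and 1.75 with DPN. It rose 8.27-fold with E2 (3.05 ± 0.27, adjusted p = 2.14e-10) and fell with PPT (-2.58 ± 0.44, adjusted p = 2.09e-05), where the libraries held 13 counts against 84, a ratio of 6.1 (3.38 to 11.9). With DPN its change was -0.10 (adjusted p = 0.823), and the DPN libraries straddled the controls. MROH2B overlaps C7 on the opposite strand, and use of strand in counting is not given in the sources used here.

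The 3 chains of C8 had different log2 fold changes. C8A and C8B lie side by side on chromosome 1 (chr1:56854768-56918223 and chr1:56929207-56974383), and C8G lies on chromosome 9. C8A was at 16.5 and 17.5 CPM in control cells, 15.5 and 13.5 with E2, 4.73 and 4.65 with PPT and 9.08 and 10.0 with DPN. C8B was at 2.64 and 3.42 CPM in control cells, 20.4 and 19.5 with E2, 0.550 and 0.770 with PPT and 2.81 and 2.89 with DPN. Both fell with PPT, by -1.86 ± 0.14 for C8A (adjusted p = 2.41e-11) and -2.18 ± 0.27 for C8B (adjusted p = 1.27e-07). With E2, C8B rose 6.58-fold (2.72 ± 0.18, adjusted p = 7.89e-13) and C8A did not pass the test (-0.23, adjusted p = 0.122), although C8A was lower when scaled by library size alone (-0.459). DPN lowered C8A (-0.83 ± 0.13) and left C8B at -0.09 (adjusted p = 0.755). The ratio of C8B to C8A per kilobase was 0.19 and 0.233 in control cells, 1.57 and 1.72 with E2, 0.138 and 0.197 with PPT and 0.368 and 0.342 with DPN. C8G, the lipocalin-like chain, was at 1.06 and 0.746 CPM in control cells, 1.66 and 1.73 with E2, 1.87 and 1.67 with PPT and 2.98 and 2.51 with DPN. It rose with DPN (1.59 ± 0.34, adjusted p = 0.000306), and DPN did not differ past the test from E2 (adjusted p = 0.0633) or PPT (adjusted p = 0.12). C8G also rose with E2 (0.90 ± 0.36, adjusted p = 0.0332) and PPT (0.96 ± 0.35, adjusted p = 0.0269). Both rises were lost in DESeq2, on 8 libraries (adjusted p = 0.0797 and 0.0721) and on 4 (adjusted p = 0.191 and 0.151). They also did not pass without Control replicate 2 (0.643 and 0.725). Nor did they without either library of the treated group (0.921 and 0.86 for E2, 0.882 and 1.04 for PPT). C9, which forms the pore, had 0 counts in every library.

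**Figure D4:**
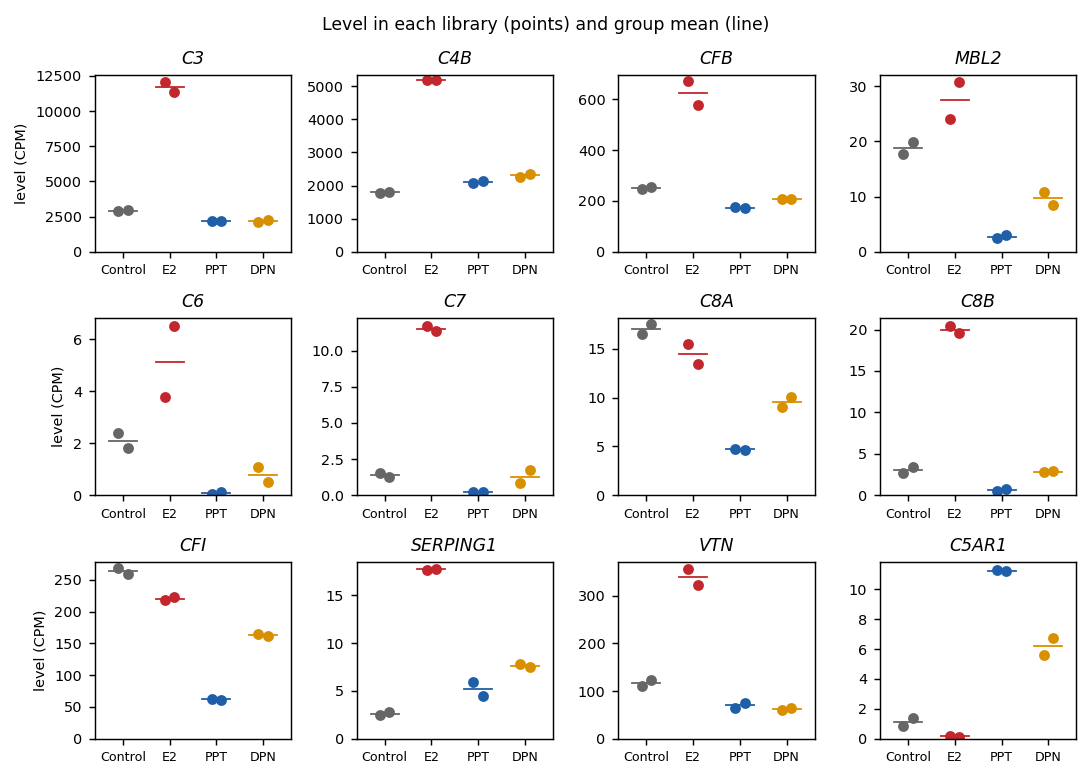
Level of 12 members in CPM after TMM scaling (y axis, from 0) by group (x axis), with 1 point per library and a line at the group mean. C7, C8B and SERPING1 stand highest with E2, and C5AR1 stands highest with PPT at 11.3 and 11.2 CPM.

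Among the soluble regulators, 3 of 6 rose and 2 fell with E2 (30.8% and 31.8% of all tested genes). 1 rose and 5 fell with PPT (22.9% and 22.8%) and with DPN (24.4% and 24.1%). SERPING1, the C1 inhibitor (chr11:57597387-57619171), was at 2.45 and 2.81 CPM in control cells, 17.7 and 17.8 with E2, 5.94 and 4.45 with PPT and 7.83 and 7.49 with DPN. It was the member of this class that rose in each treated group, 6.73-fold for E2 (2.75 ± 0.18, adjusted p = 2.36e-13), with 0.98 ± 0.19 for PPT (adjusted p = 0.000112) and 1.54 ± 0.18 for DPN (adjusted p = 7.59e-08). VTN, vitronectin, which keeps the attack complex out of membranes (chr17:28367284-28373091), was at 111 and 123 CPM in control cells, 356 and 321 with E2, 64.7 and 75.1 with PPT and 60.1 and 65.0 with DPN. It rose 2.9-fold with E2 (1.54 ± 0.08, adjusted p = 2.22e-15) and fell with PPT (-0.74 ± 0.08) and DPN (-0.90 ± 0.08). SARM1 overlaps VTN on the opposite strand. CLU, clusterin, which binds the same complex, was at 514 and 526 CPM in control cells, 805 and 747 with E2, 208 and 238 with PPT and 240 and 248 with DPN. Its log2 fold changes were 0.58 ± 0.07 (adjusted p = 3.38e-08), -1.22 ± 0.07 (adjusted p = 3.47e-14) and -1.09 ± 0.07 (adjusted p = 4.24e-13).

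CFI encodes factor I, the protease that inactivates C3b and C4b (chr4:109731008-109802150). It was at 268 and 259 CPM in control cells, 218 and 223 with E2, 63.1 and 61.2 with PPT and 165 and 162 with DPN. All treated libraries lay below the controls. The fall was 4.24-fold with PPT (-2.08 ± 0.07, adjusted p = 3.59e-19), with -0.69 ± 0.06 for DPN (adjusted p = 9.32e-10) and -0.26 ± 0.06 for E2 (adjusted p = 0.000983). C4BPA and C4BPB, the chains of the C4b-binding protein, ranged from 78.7 to 82.7 and from 46.5 to 47.4 CPM in control cells. C4BPA fell by 1.12 with PPT (adjusted p = 2.61e-11) and by 1.11 with DPN (adjusted p = 3.85e-11) on the log2 scale. C4BPB fell by 0.78 with PPT (adjusted p = 1.82e-07), by 0.71 with DPN (adjusted p = 7.47e-07) and by 0.48 with E2 (adjusted p = 0.000112). C4BPA did not pass the test with E2 (-0.13, adjusted p = 0.19), and was lower when scaled by library size alone (-0.354). CFHR2, CFHR3, CFHR4 and CFHR5, factor H-related genes that share near-identical sequence, had 3, 0, 0 and 7 counts over the 8 libraries.

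Membrane regulators are surface proteins that protect a cell from its own complement. Of all tested genes, 30.8% rose and 31.8% fell with E2, but 0 of the 3 membrane regulators tested did either. Here, 0 were higher and 1 was lower at an unadjusted p under 0.05, and DESeq2 on 8 libraries passed 0. CD59 passed as lower with E2 in DESeq2 and in edgeR on 4 libraries (-0.155 and -0.148, adjusted p = 0.0443 and 0.0445), and CD55 and CD59 did with no filter (-0.251 and -0.198, adjusted p = 0.0248 and 0.0135). CD46, a cofactor of factor I, was at 358 and 325 CPM in control cells, 315 and 334 with E2, 253 and 311 with PPT and 407 and 391 with DPN. It fell with PPT (-0.28, adjusted p = 0.00435) and rose with DPN (0.22, adjusted p = 0.0176). The fall did not pass without Control replicate 1 (-0.204, adjusted p = 0.0939) or PPT replicate 1 (-0.134, adjusted p = 0.158), nor the rise without Control replicate 2 (0.147, adjusted p = 0.239) or DPN replicate 1 (0.194, adjusted p = 0.131). CD55, which speeds the decay of convertases, was at 35.7 and 35.5 CPM in control cells, 32.6 and 29.3 with E2, 49.3 and 61.9 with PPT and 50.0 and 47.7 with DPN, and rose with PPT (0.64, adjusted p = 4.54e-06) and DPN (0.46, adjusted p = 0.000359). CD59, which blocks the attack complex, was at 191 and 186 CPM in control cells, 171 and 169 with E2, 107 and 120 with PPT and 178 and 183 with DPN, and fell with PPT (-0.73, adjusted p = 1.19e-09). Without either PPT library, which enters this contrast only through the joint fit, CD55 and CD59 passed as lower with E2 (-0.208, adjusted p = 0.0407 and 0.0425; -0.155, adjusted p = 0.0263 and 0.0264). With library size alone, CD46, CD55 and CD59 were lower with E2, at -0.299, -0.426 and -0.373. CR1L had 0 counts in every library.

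C5AR1, the receptor of C5a (chr19:47290023-47322066), was the only tested receptor. It had 26 and 40 counts in the control libraries, 4 and 3 with E2, 308 and 335 with PPT and 161 and 197 with DPN, or 0.839 and 1.36 CPM, 0.179 and 0.126, 11.3 and 11.2, and 5.58 and 6.77. The E2 libraries lay below, and the PPT and DPN libraries above, both controls. It fell 7.02-fold with E2 (-2.81 ± 0.48, adjusted p = 1.34e-05) and rose 10.3-fold with PPT (3.36 ± 0.24, adjusted p = 3.12e-12) and 5.63-fold with DPN (2.49 ± 0.24, adjusted p = 2.32e-09). The counts of 7 and 66 gave a ratio of 7.18 with an exact counting interval of 3.3 to 18.6. C5AR2, the second C5a receptor, had 12 counts and C3AR1, the C3a receptor, had 1 count over the 8 libraries.

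The compounds, all at 1 µM for 48 h, were then set against each other. 3 pairs were compared, which share libraries with each other, and p-values were adjusted over the tested genes within each pair. Between E2 and PPT, 22 of 29 members were higher and 2 lower with E2, against 30.1% and 32.1% of all tested genes. With library size alone these were 18 and 4, and that scaling moved the median of all genes by -0.214. Between E2 and DPN, 19 were higher and 5 lower with E2, against 32.6% and 31.3%. Between DPN and PPT, 13 were higher and 1 lower with DPN, against 19.1% and 18.8%, and 15 did not pass. At the thresholds of the paper, 11, 8 and 4 members were higher and 1, 1 and 0 lower, against 7.85%, 7.43% and 0.957% of all genes higher and 3.03%, 3.27% and 0.414% lower. For the 0, DESeq2 also gave 0, and 0 members had an unadjusted p under 0.05 with a difference of that size.

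C6, C7 and C8B were the members highest with E2 relative to PPT, at 5.80 ± 0.54 (adjusted p = 4.55e-10), 5.63 ± 0.36 (adjusted p = 1.98e-13) and 4.90 ± 0.23 (adjusted p = 2.44e-16) on the log2 scale. The first 2 rest on 5 and 13 counts with PPT, with counting ratios of 59 (24.9 to 183) and 50.5 (29.3 to 95.6). MBL2 followed at 3.34 ± 0.17 (adjusted p = 9.72e-16), C3 at 2.44 ± 0.06 (adjusted p = 1.47e-22) and VTN at 2.28 ± 0.08 (adjusted p = 6.05e-19). C5AR1 went the other way, at -6.17 ± 0.35 (adjusted p = 1.1e-14), with 7 counts against 643, a ratio of 74.1 (35.8 to 185). Relative to DPN, C7, C8B, C6, VTN and C3 were higher with E2 by 3.15, 2.81, 2.69, 2.44 and 2.43 (adjusted p from 3.55e-22 to 7.53e-07), and C5AR1 was lower at -5.30 ± 0.37 (adjusted p = 1.16e-12). The members that differed between DPN and PPT at the thresholds of the paper were MBL2 (1.83 ± 0.18), C6 (3.12 ± 0.67), C7 (2.48 ± 0.45) and C8B (2.09 ± 0.27), each higher with DPN. C3 did not differ past the test between PPT and DPN, with a difference of 0.01 (95% interval -0.104 to 0.129), and neither did C2 at 0.01 (-0.117 to 0.137).

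**Figure D5:**
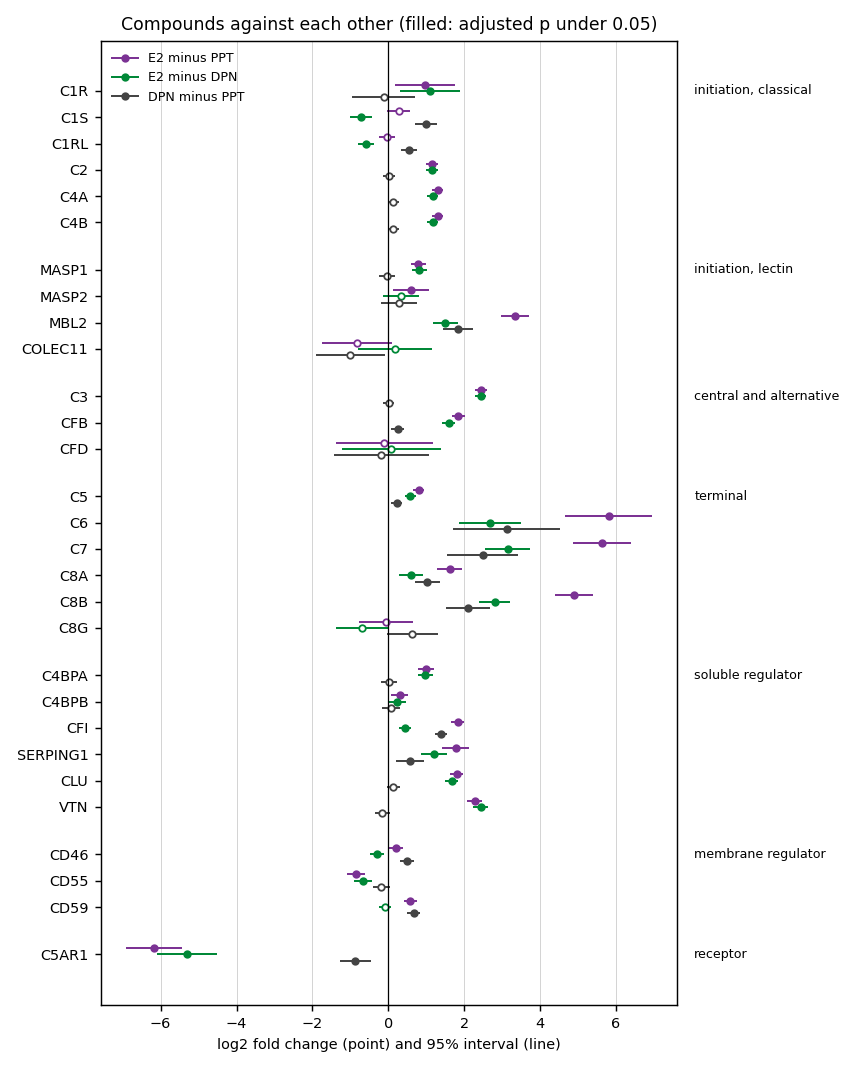
Log2 difference with 95% intervals (x axis) of the 29 tested members (y axis) in a color each for E2 minus PPT, E2 minus DPN and DPN minus PPT. Filled points passed an adjusted p of 0.05. C6 and C7 lie farthest to the right of E2 minus PPT, at 5.80 and 5.63, and C5AR1 farthest to the left at -6.17.

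Several members lie next to each other in the genome. In the chromosome 6 cluster from C2 to C4B, 4 of 4 members rose with E2, against 30.8% of all tested genes. C4A and C4B, which share reads, were among the members of this cluster. Of the 20 other tested genes in that span and 100000 bases on each side, 11 rose and 5 fell, with a median of 0.43. The 11 are not independent results. They include the related genes HSPA1A, HSPA1B and HSPA1L, TNXA and TNXB, and CYP21A2 and CYP21A1P. ZBTB12, also among them, overlaps C2 by 2474 bases on the opposite strand. With PPT and with DPN, C2, C4A and C4B rose and CFB fell, and of the 20 other genes 4 rose and 6 fell with PPT and 3 rose and 6 fell with DPN. On chromosome 1, in the cluster from C4BPB to CD46, C4BPB fell with E2 and the other 3 members did not pass, while C4BPA, C4BPB and CD46 fell and CD55 rose with PPT, and C4BPA and C4BPB fell and CD46 and CD55 rose with DPN. Of the 4 other tested genes there, 2 rose and 1 fell with E2, and 1 rose and 1 fell with PPT and with DPN. In the cluster of C1S, C1R and C1RL on chromosome 12, C1S fell with E2, C1S and C1R fell with PPT, and C1RL rose and C1R fell with DPN. Of the 14 other tested genes there, 5 rose and 1 fell with E2, 4 rose and 1 fell with PPT, and 2 rose and 2 fell with DPN.

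A list of 25 other complement genes held 11 with 0 counts in every library, among them C1QA, C1QB and C1QC, the chains of C1q, and 8 genes that could be tested. With E2, 2 of these rose and 2 fell (30.8% and 31.8% of all tested genes), with PPT 2 rose and 3 fell (22.9% and 22.8%), and with DPN 2 rose and 2 fell (24.4% and 24.1%). CPN2, a subunit of the carboxypeptidase N that inactivates C3a and C5a, went from a mean of 79.5 CPM in control cells to 22.0 with E2 (-1.86 ± 0.09, adjusted p = 1.21e-15), and also fell with PPT (-0.47, adjusted p = 5.52e-05) and DPN (-0.86, adjusted p = 4.02e-09). ITGB2, the shared β chain of the complement receptors CR3 and CR4, went from 5.51 to 23.6 CPM with E2 (2.10 ± 0.15, adjusted p = 1.22e-12) and fell with PPT (-0.56, adjusted p = 0.00689), while DPN gave -0.38 (adjusted p = 0.0535). ITGAX, the α chain of CR4, rose with PPT (1.87 ± 0.30, adjusted p = 7.82e-06) and DPN (3.43 ± 0.28, adjusted p = 6.28e-11), and was at 0.05 with E2 (adjusted p = 0.918). THBD, thrombomodulin, had 0 counts in the control libraries and means of 0.441 CPM with PPT and 0.742 with DPN.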

How the data were processed

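RNA-Seq was measured in 8 libraries of HepG2 cells, 2 per treatment. The methods of the paper state a larger n per treatment than the 2 libraries analysed here. The deposited files hold raw counts of reads per Entrez gene, which the authors made from poly(A), strand-specific, single-end reads aligned to GRCh38.p10. The aligner, the counter and the use of strand are not given in the sources used here, although DESeq2 is named in the submitters' processing notes. Symbols were matched for 99.4% of IDs, and positions and exon lengths come from GENCODE 44.

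Genes that passed edgeR's filterByExpr (minimum count 10, minimum total 15) were tested, 15460 in all or 58.9%, in one fit of the 8 libraries in edgeR 4.0.16 and R 4.3.3, scaled by TMM. Contrasts were taken from the quasi-likelihood F test and their p-values were Benjamini-Hochberg adjusted over all tested genes. The biological coefficient of variation was 6.8%. Depth was 25103160 to 29670814 counts, and a floor of 3 counts is 0.0136 CPM over all libraries. The steps were tested on simulated data. Up to 4 members per role with the smallest adjusted p, C4A, C4B, C5AR1 and every member past the thresholds of the paper are given with all their values. The members and lists were chosen with earlier results of these data known. Alternatives were DESeq2 1.42.0, other scalings and filters, a replicate block, C4A and C4B summed, and leaving out each library.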

Additional observations from a re-analysis of the deposited data

How the results depend on the processing

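The 174 values (29 members in 6 contrasts) were recomputed under 18 alternatives. Of 3124 alternative values, 3017 kept their side of the threshold, and any change of sign where neither value passed was counted among these. Another 62 lost and 44 gained an adjusted p under 0.05 in the same direction, and 1 changed sign from a value that had passed. That was CD46 between E2 and PPT with library size alone, at -0.012 (adjusted p = 0.903). The 43 values past the thresholds of the paper kept an adjusted p under 0.05 in the same direction in all 773 alternative values that had one. At those thresholds, the counts higher and lower were 7 and 1 with E2, 1 and 6 with PPT, 3 and 0 with DPN, 11 and 1 for E2 against PPT, 8 and 1 for E2 against DPN and 4 and 0 for DPN against PPT. With library size alone, 9 members were lower with E2 than in the control and 4 lower than with PPT. C8G then lost its rise with E2 (0.672, adjusted p = 0.104). For DPN against PPT, 2 were lower in edgeR on 4 libraries and with no filter. Without 1 library, 13 to 15 rose and 4 to 6 fell with E2, 8 to 10 and 14 to 16 with PPT, and 9 to 11 and 10 to 11 with DPN. The same ranges were 19 to 22 higher and 2 to 2 lower for E2 against PPT, 17 to 19 and 5 to 5 for E2 against DPN, and 11 to 13 and 1 to 3 for DPN against PPT. The replicate numbers did not pair the samples (correlations of deviations -0.0645 to 0.0233), and the replicate block changed 1 call, C4BPB between E2 and DPN (0.227, adjusted p = 0.0552). In all other respects the cause of these changes was not tested. With 2 libraries per group, small differences in members under 1 CPM could not be detected at this depth.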

Other observations

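Genes that carry signals known to induce complement in liver cells were listed as well. Of 24 such genes 22 were tested, and 10 rose and 8 fell with E2 (30.8% and 31.8% of all tested genes), 3 rose and 11 fell with PPT (22.9% and 22.8%), and 7 rose and 10 fell with DPN (24.4% and 24.1%). IL1R1, the interleukin 1 receptor, rose with E2 (1.36 ± 0.07, edgeR adjusted p = 5.53e-15) and DPN (0.43, edgeR adjusted p = 1.82e-05) and fell with PPT (-0.51, edgeR adjusted p = 3.14e-06). Of the C/EBP transcription factors in the list, CEBPB and CEBPA fell with E2 (-1.08 and -0.88, edgeR adjusted p = 2.9e-11 and 1.75e-10) and with DPN (-0.87 and -0.61, edgeR adjusted p = 3.06e-09 and 1.67e-07), while CEBPD rose with E2 (1.82, edgeR adjusted p = 3.74e-10) and fell with PPT (-0.81, edgeR adjusted p = 0.00106). SOCS3, an inhibitor of cytokine signaling, rose with E2 (2.05, edgeR adjusted p = 1.87e-06) and DPN (2.32, edgeR adjusted p = 2.98e-07). IL6R, the interleukin 6 receptor, rose with E2 (0.41, edgeR adjusted p = 0.000251), PPT (2.25, edgeR adjusted p = 6.83e-18) and DPN (2.57, edgeR adjusted p = 5.02e-19), and NFKB1 fell with E2 (-0.26, edgeR adjusted p = 0.00597), PPT (-0.85, edgeR adjusted p = 1.27e-09) and DPN (-0.46, edgeR adjusted p = 2.63e-05). IFNGR1 fell with E2 (-0.84, edgeR adjusted p = 4.78e-11) and PPT (-0.205, edgeR adjusted p = 0.0148) and rose with DPN (0.19, edgeR adjusted p = 0.0213). GPER1 rose with E2 (0.43, edgeR adjusted p = 0.00381) and fell with PPT (-1.39, edgeR adjusted p = 2.29e-09) and DPN (-0.51, edgeR adjusted p = 0.00148). NR1H4 fell with E2 (-0.36, edgeR adjusted p = 0.00114) and DPN (-0.81, edgeR adjusted p = 3.19e-08). These values stand beside the complement genes, and no relation between them was tested.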
